A study of Mus musculus with 30 samples.

Results

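The transcript described here is the mRNA of nucleolin (gene symbol Ncl), 1 of the 20423 transcripts listed in the count tables that were used. It was identified by its symbol, and earlier results of these data were known when it was chosen. Of its 6 annotated transcripts 1, the protein-coding Ncl-201 (ENSMUST00000027438), was listed in every table used. The questions were whether an antibody to nucleolin recovers the mRNA that encodes nucleolin, and whether that mRNA changes after nerve injury. RNA was sequenced from axoplasm, the fluid extracted from ground and centrifuged mouse sciatic nerve. Each of the 10 groups held 3 libraries from independent repeats, and each sample pooled 10 nerves. Naive nerves were the uninjured controls, and injured nerves were taken 7 days after the sciatic nerve was crushed with forceps at mid-thigh. From each condition there was input RNA, RNA immunoprecipitated (IP) with an antibody to nucleolin, RNA immunoprecipitated with an antibody to PTBP1, and a blocked IP for each antibody, in which the antibody had first been held with the peptide it recognises. Strain, genotype, sex and age were not analysed here.

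Nucleolin is an abundant protein of the nucleolus, where it takes part in the transcription of ribosomal DNA and the processing of pre-ribosomal RNA. It also binds mRNAs outside the nucleus through its RNA recognition motifs and its tail rich in arginine and glycine. In sensory axons it is known as a link between the motor kinesin and mRNAs such as those of importin beta 1 and mTOR. The Ncl gene carries small nucleolar RNA genes inside its introns, and its transcription is known to respond to the growth regulator Myc. PTBP1 is an RNA-binding protein that prefers stretches of pyrimidines.

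Ncl lies on the minus strand of chromosome 1 in mouse build GRCm38, from 86344719 to 86359400. Ncl-201 has 14 exons and 8202 bases when spliced. Its coding sequence has 2121 bases without the stop codon, or 707 codons. The 3′ UTR takes up 5901 bases, nearly all of the 5978 bases of the last exon. The deposited counts are sums over the whole transcript, so where in these 8202 bases the reads fell was not analysed here.

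Short stretches of the mRNA are shown because they hold letters to which PTBP1, or proteins of AU-rich mRNAs, are known to bind. Capitals mark the match to CTCTCT, a pyrimidine run of the kind PTBP1 prefers, or to ATTTA, the core of AU-rich elements. Each run is the mRNA strand written as DNA, 5′ to 3′, with the positions on GRCm38 of its minus strand.
Ncl coding, exon 8, chr1:86353808-86353833: agccaaaaacCTCTCTttcaacatca
Ncl coding, exon 9, chr1:86353251-86353275: cttatattgaATTTAagtctgaagc
Ncl 3′ UTR, exon 14, chr1:86346978-86347003: gctgagtcatCTCTCTagcccttcaa
Ncl 3′ UTR, exon 14, chr1:86345925-86345950: gagacagggtCTCTCTcactatgtag
Ncl 3′ UTR, exon 14, chr1:86344820-86344845: tttgtctggcCTCTCTgtagcaagca
All motifs were searched on the mRNA strand only, over the whole spliced mRNA, and matches of different motifs may overlap. CTCTCT occurred 4 times in Ncl, 1 of them in the coding sequence. Of 716 protein-coding genes whose mRNA was within 10% of the length of Ncl, 94.7% held a CTCTCT and 53.4% held as many as Ncl or more. ATTTA occurred 12 times, 2 of them in the coding sequence and 10 in the 3′ UTR, and 37.4% of the mRNAs of like length held as many or more. The ATTTA stretch shown is a coding one, and the ATTTA matches of the 3′ UTR are not shown. TCTT, a shorter pyrimidine core, occurred 46 times, and 45.1% held as many or more. The hairpin motif bound by nucleolin in pre-ribosomal RNA, searched as TCCCGA, as TCCCGG, as GCCCGA and as GCCCGG, had 0 matches in Ncl, while 92.0% of the mRNAs of like length held at least 1. For these 4 searches Ncl therefore had about as many pyrimidine and AU-rich matches as other mRNAs of its length, and none of the 4 hairpin letter strings. All this takes the full 8202 bases as transcribed, which was not tested. Another annotated transcript, Ncl-202, ends at 86350495, and the 3′ UTR stretches shown lie past that end.

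The libraries held 7536033 to 22919174 counts over the listed transcripts. Levels are given in CPM, counts divided by the library total and scaled to a common size, with TMM factors that bring the bulk of the transcripts of different libraries to one level. Nerve markers were present in the labelled tissue: summed over 11 transcripts, Schwann cell and myelin markers took 28225 to 55233 CPM in naive input, and 7 neuron and axon transcripts took 748 to 961 CPM. In injured input the same sums were 5203 to 8172 CPM and 103 to 186 CPM. Naive input also held fibroblast markers, 9 transcripts, at 29860 to 36278 CPM, and skeletal muscle markers, 4 transcripts, at 684 to 1075 CPM. Nuclear RNAs such as Malat1, 6 transcripts, took 6314 to 31166 CPM there. The share of the input RNA that came from axons was not tested. Markers of dividing cells, 8 transcripts, went from 82.2 to 94.6 CPM in naive input to 846 to 1008 CPM in injured input, and macrophage markers, 9 transcripts, from 1061 to 2122 CPM to 6634 to 9185 CPM. Fewer cells of a type and less RNA per cell cannot be told apart in such bulk samples. A single transcript of Yam1 (annotated as Gm42418) took 38.2%, 19.6% and 5.37% of the counts of injured input libraries 1, 2 and 3, and injured input 1 had a TMM scaling factor of 0.508.

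Ncl was among the more abundant transcripts in the axoplasm extracts. Which cells or cell parts it came from was not analysed here. On a TMM scale shared by all 30 libraries, its mean was lowest in naive input, at 317 ± 94.7 CPM, and highest in naive nucleolin IP, at 2478 ± 1735 CPM (SD, n = 3 for every group). Between these stood injured nucleolin IP at 1997 ± 1580.5, injured nucleolin blocked IP at 869 ± 461, injured input at 669 ± 311 and naive nucleolin blocked IP at 504 ± 245 CPM. The PTBP1 groups had 492 ± 103 CPM in injured blocked IP, 450 ± 37.6 in injured IP, 380 ± 179 in naive IP and 344 ± 96.7 in naive blocked IP. The ranges of all 9 pairs of neighbours in this order overlapped. Per kilobase of mRNA, with 8202 bases taken for Ncl, it ranked 74th to 804th of 10044 transcripts in the naive nucleolin IP libraries. In naive input it ranked 1242nd to 2056th.

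**Figure D1:**
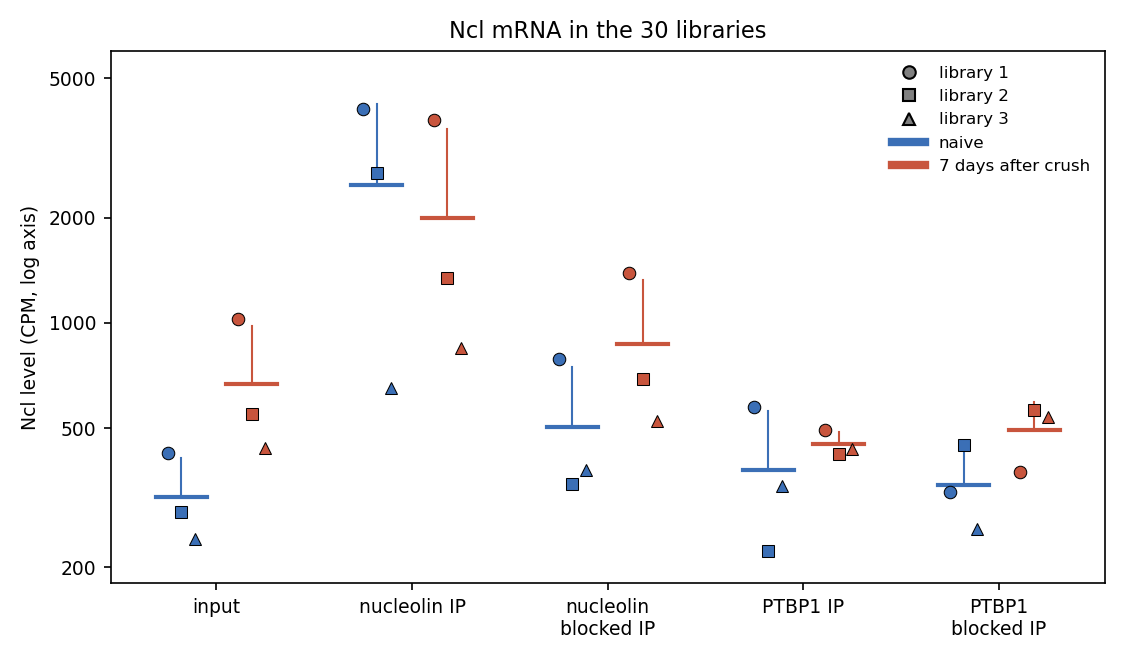
Ncl level in each of the 30 libraries, in CPM on a log axis, by kind of library; blue is naive, red is 7 days after crush, symbols give the library number, bars the group mean and thin lines 1 SD above it. The nucleolin IP groups reach 4100.2 and 3799 CPM, and every library outside these groups is at 1392 CPM or below.

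Input was examined first, for the change of Ncl mRNA in the axoplasm extract after crush. Naive input libraries 1, 2 and 3 held 5709, 5162 and 4638 counts of Ncl, or 423, 287 and 241 CPM. Injured input libraries held 3880, 6090 and 6514 counts, or 1023, 547 and 438 CPM. All 3 injured libraries were above all 3 naive ones, and the ratios of libraries with the same number were 2.42, 1.91 and 1.81. In the quasi-likelihood test of edgeR on the 6 inputs, Ncl was 2.10-fold higher after crush, a log2 fold change of 1.07 (SE 0.32, 95% interval 0.37 to 1.77, adjusted p = 0.0267). Of 14095 transcripts tested, 14.5% were called higher in injured input, and 22.5% had injured libraries all above naive ones, so Ncl is among many. A larger log2 fold change was found for 19.8% of the transcripts.

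The authors' deposited values for Ncl in input were a log2 fold change of 0.95 and an FDR of 0.000124, where 35.2% of the transcripts had an FDR under 0.05. In the edgeR fit here, the call for Ncl in input depended on single libraries and on the scaling. Of 14 alternatives 9 kept the call and 5 lost it, and these 5 follow. Without injured input 1, the library with the low scaling factor, the log2 fold change was 0.51 (adjusted p = 0.190), without injured input 2 it was 1.14 (adjusted p = 0.0509). Without naive input 2 it was 1.00 (adjusted p = 0.0981), and without naive input 3 it was 0.93 (adjusted p = 0.0794). With library totals alone in place of TMM it was 0.60 (adjusted p = 0.409), and the median of all transcripts then stood at −0.26, so Ncl was 0.86 above that median. Without any scaling factor, Ncl had 515, 498 and 488 CPM in the injured inputs and 411, 327 and 252 CPM in the naive ones, and the groups did not overlap.

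Genes that act with nucleolin in ribosome production were compared with it in the same input libraries. Of a list of 47 genes of ribosome biogenesis and the nucleolus, 38 were tested, 6 rose and 1 fell, and 31 did not pass the test. Of all transcripts 14.5% were called higher, as above, and 13.4% lower. The median log2 fold change of the list was 0.36, beside 0.00 for all transcripts tested, and 7 of the 38 had a larger value than Ncl. Rrp12, a factor of small-subunit maturation and export, rose from 4.99 ± 3.54 to 22.0 ± 3.97 CPM (log2 fold change 2.14, adjusted p = 0.00751). Wdr43, a component of the small-subunit processome, went from 50.3 ± 8.93 to 110 ± 40.6 CPM (1.12, adjusted p = 0.0146). Gnl3, also called nucleostemin, went from 51.3 ± 11.2 to 111 ± 15.7 CPM (1.11, adjusted p = 0.00581). Ddx10, an RNA helicase, went from 27.4 ± 0.706 to 58.9 ± 22.5 CPM (adjusted p = 0.0166). All 4 had a larger fold change than Ncl. Nop10, a small protein of the box H/ACA particles, was the member that fell, from 214 ± 62.8 to 104 ± 5.78 CPM (−1.03, adjusted p = 0.00907), and it was chosen after its values were seen. A listed transcript can be a minor form of its gene, and Npm1, another major nucleolar protein, was represented by a transcript at 14.6 CPM in naive input. Without injured input 1 the list had 3 members higher and 1 lower. With library totals alone it had 1 higher and 0 lower, and with totals taken without Yam1, Lars2 and Gm15564 it had 12 higher and 1 lower.

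Of 17 RNA-binding proteins known from axons, 14 were tested in input, 3 rose and 0 fell, with a list median of 0.40, beside 14.5% of all transcripts called higher and 13.4% lower. Hnrnpk rose by 1.25 on the log2 scale (adjusted p = 0.0058). G3bp1, a core protein of stress granules, rose by 0.98 (adjusted p = 0.00376), and Hnrnpa2b1, which binds mRNAs bound for transport, by 0.64 (adjusted p = 0.0407). With library totals alone 0 of the 14 were called, without injured input 1 it was 2, and with totals taken without Yam1, Lars2 and Gm15564 it was 5, all higher. Of 5 genes for nucleolin transport and cargo, 2 fell. Kif5a, a neuronal kinesin heavy chain, had a log2 fold change of −2.03 (adjusted p = 0.0184), and Mtor, the kinase whose mRNA nucleolin is known to carry, had −1.45 (adjusted p = 0.00923). Kpnb1, which encodes importin beta 1, had a log2 fold change of 0.24 and did not pass the test. Of 7 genes of the Myc network 2 were tested, and Mnt, a partner of Max, rose from 25.4 ± 2.32 to 71.9 ± 14.4 CPM (adjusted p = 0.00129). With library totals alone 0 of these 2 were called. Myc itself was not among the tested transcripts.

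Other cell types moved in the same inputs. Of 13 tested markers of dividing cells 11 rose, with a median log2 fold change of 3.66, and of 10 macrophage markers 6 rose, with a median of 1.94. Of 10 Schwann cell and myelin markers 7 fell and 2 rose, and of 8 neuron and axon markers 2 fell and 1 rose. Markers of adipocytes, skeletal muscle and red blood cells fell in 4 of 4 each, with medians of −4.78, −3.27 and −3.50, and of 5 fibroblast markers 3 fell. Of 5 endothelial markers 1 rose and 1 fell. Of all transcripts tested, 14.5% were called higher and 13.4% lower. Mki67, a marker of cycling cells, rose from 11.5 ± 5.02 to 197 ± 46.6 CPM, and Gpnmb, an mRNA of lipid-laden macrophages, from 32.1 ± 11.4 to 1843 ± 221 CPM. Sncg, a neuronal synuclein, fell from 621 ± 176 to 43.8 ± 12.5 CPM. It does not stand for its list, as the neuron and axon markers had a median log2 fold change of −0.39, with values from −3.83 to 2.03. The part that these changes in cell types have in the value of Ncl was not tested.

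**Figure D2:**
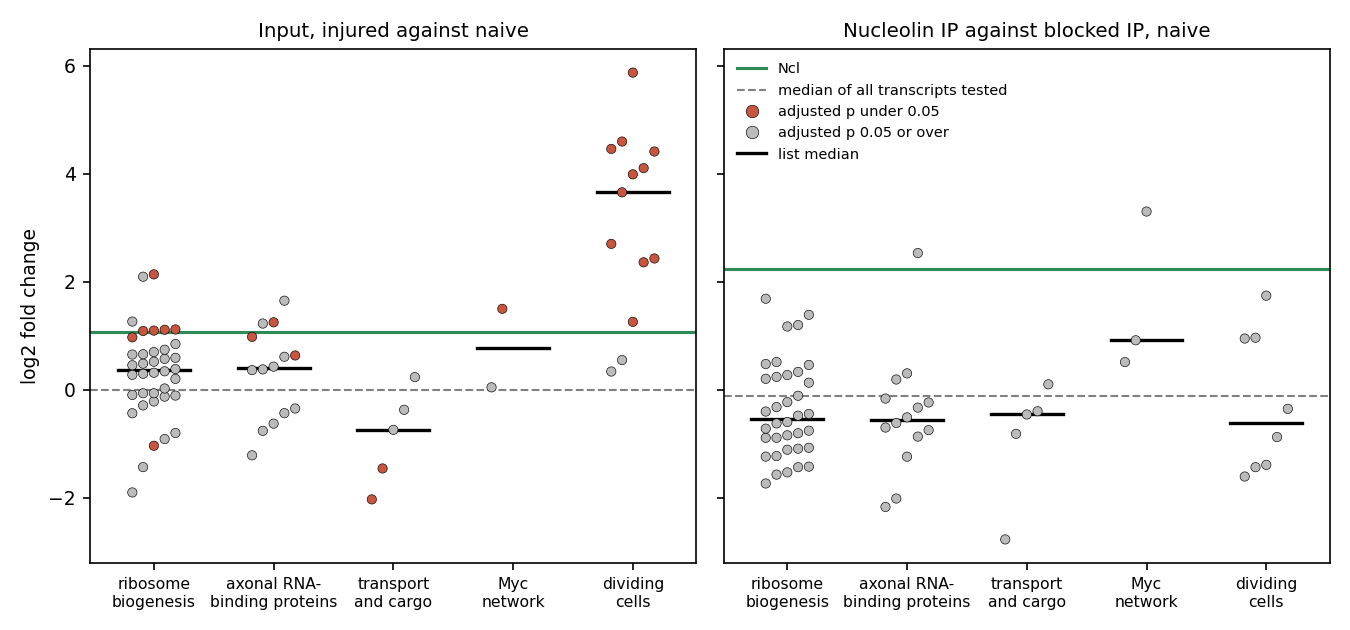
Log2 fold changes of the tested members of 5 gene lists in input (left, injured against naive) and in naive nucleolin IP against blocked IP (right); red points have an adjusted p under 0.05, black bars are list medians, the green line is Ncl and the dashed line the median of all transcripts tested. Ncl lies at 1.07 on the left and at 2.23 on the right, where 0 members of any list are called.

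Recovery of its own mRNA was measured as nucleolin IP against the peptide-blocked IP. Naive nucleolin IP libraries 1, 2 and 3 held 49994, 32743 and 10682 counts of Ncl, or 4100.2, 2685 and 649 CPM. The naive blocked libraries held 15876, 7140 and 8413 counts, or 785, 347 and 379 CPM. Naive IP libraries 1 and 2 were high and library 3 was not, and its value lay below that of blocked library 1, so the groups overlapped. The ratios of IP to blocked IP with the same number were 5.22, 7.74 and 1.71. After crush, the IP libraries held 54932, 20059 and 15546 counts, or 3799, 1345 and 847 CPM. The injured blocked libraries held 33626, 14295 and 10390 counts, or 1392, 693 and 522 CPM, and overlapped the IP. The ratios were 2.73, 1.94 and 1.62. The IP was thus above the blocked IP of the same number in 6 of 6 cases. The numbers did not meet the pairing rule given below, with correlations as low as 0.0104 in naive and 0.0336 in injured nerve. The libraries were therefore not treated as pairs, although missing this rule does not show that they are unpaired. The share of all transcripts with 6 of 6 was not counted.

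Neither difference passed the threshold. In naive nerve Ncl had a log2 fold change of 2.23 (SE 0.72, 95% interval 0.68 to 3.79, unadjusted p = 0.00839, adjusted p = 0.203) in the edgeR fit of the 12 nucleolin libraries. In this comparison edgeR called 0% of 11840 transcripts, and 12% had an unadjusted p under 0.05. A larger log2 fold change than that of Ncl was found for 11.0% of the transcripts. DESeq2 called 762 transcripts, and gave Ncl 2.41 with an adjusted p of 0.0278. In injured nerve the log2 fold change was 1.19 (SE 0.70, 95% interval −0.32 to 2.70, adjusted p = 0.945). There edgeR also called 0%, with 6.49% under an unadjusted p of 0.05, and DESeq2 called 322 transcripts, not Ncl. In injured nerve 16.3% of the transcripts had a larger log2 fold change than Ncl. Without injured IP 1 the injured value was 0.34. In the authors' deposited tables, the log2 fold change of Ncl over the blocked IP was 2.09 with an FDR of 0.0288 in naive nerve, where 5.43% of the transcripts had an FDR under 0.05, and 0.36 with an FDR of 0.975 in injured nerve.

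A change of recovery with crush was not resolved. The difference between the injured and the naive log2 fold change was −1.05 (SE 0.98, 95% interval −3.16 to 1.06, adjusted p = 1.0 after rounding), and 0% of the transcripts were called, with 2.55% under an unadjusted p of 0.05. DESeq2 called 20. The difference was −1.90 without injured IP 1 and −0.50 without naive IP 1. Within the IP libraries, injured against naive, Ncl had −0.23 (adjusted p = 0.941), with 0.828% of the transcripts called in either direction. The blocked libraries had 0.82 (adjusted p = 0.529), with 1.55% called. With libraries of the same number, the injured blocked IP was above the naive one in 3 of 3, and the injured IP above the naive IP in 1 of 3. The value within the IP libraries turned to 0.14 without injured IP 3 and to 0.32 without naive IP 1.

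**Figure D3:**
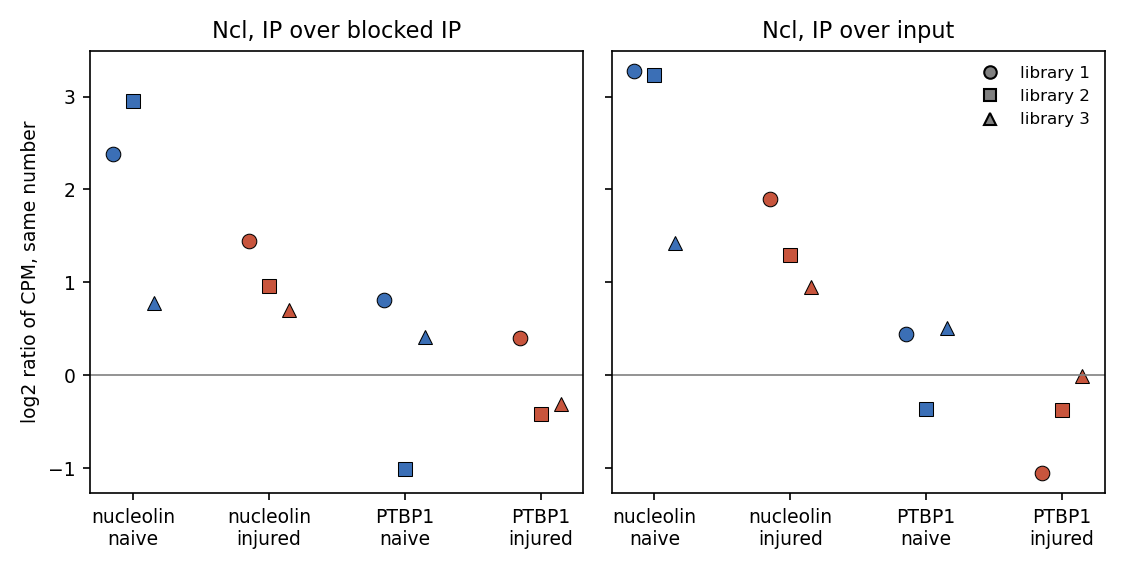
Log2 ratio of Ncl CPM in each IP library to the blocked IP (left) and to the input (right) with the same number; blue is naive, red is injured, and symbols give the library number. All 12 nucleolin ratios lie above 0, and the PTBP1 ratios lie on both sides of it.

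Input served as the other reference, and here the naive groups did not overlap. Naive nucleolin IP had 9.69, 9.36 and 2.69 times the Ncl CPM of the input with the same number. The fit of 18 libraries gave a log2 fold change of 2.97, or 7.83-fold (SE 0.67, 95% interval 1.56 to 4.38, adjusted p = 0.0381). Only 1.05% of 10891 transcripts were called higher, 114 in all, and Ncl ranked 368th by its log2 fold change. All IP libraries above all inputs, as for Ncl, was found for 16.4% of the transcripts. In the injured nerve the ratios were 3.71, 2.46 and 1.93, the groups overlapped, and the log2 fold change was 1.58 (SE 0.64, adjusted p = 0.248), with 0.367% of the transcripts called higher. This was the only comparison in which the numbers met the pairing rule given below. With the replicate number as a block the injured value was 1.41 with an adjusted p of 0.0433, so the call depends on whether the block is used. Without the block and without injured IP 1 the injured value was 0.71. The change of this ratio with crush was −1.39 (SE 0.88, 95% interval −3.25 to 0.47, adjusted p = 1.0 after rounding), 0% of the transcripts were called by edgeR or DESeq2, and 0.799% had an unadjusted p under 0.05. The comparisons with the blocked IP and with input share the IP libraries.

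The naive call against input was lost without any 1 of 5 libraries. The log2 fold change was 3.23 without naive input 1 (adjusted p = 0.141), 2.91 without naive input 2 (adjusted p = 0.234) and 2.80 without naive input 3 (adjusted p = 0.246). It was 2.40 without naive IP 1 (adjusted p = 0.244) and 2.91 without naive IP 2 (adjusted p = 0.108). Without naive IP 3, the library with the low ratio, it was 3.42 (adjusted p = 0.00445).

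The blocked nucleolin IP libraries also held more Ncl than the input libraries of the same number, but their ranges overlapped. In naive nerve they were 347 to 785 CPM against 241 to 423, and in injured nerve 522 to 1392 against 438 to 1023. Blocked IP against input was not tested, and the share of all transcripts with such ratios was not counted. The ratio of blocked IP to the input with the same number was 1.86, 1.21 and 1.57 in naive nerve and 1.36, 1.26 and 1.19 in injured nerve, above 1 in 6 of 6. The share of 10232 common transcripts at 0 counts differed among these libraries. It was 8.33%, 6.01% and 0.411% in naive blocked libraries 1, 2 and 3 and 0.782%, 0.713% and 0.0977% in the IP libraries. Library 3, where the ratio of IP to blocked IP was lowest, had the fewest transcripts at 0 in both, and the part of this in the ratio was not tested.

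PTBP1 precipitates gave a contrast for the same mRNA. Naive PTBP1 IP libraries 1, 2 and 3 held 5749, 2681 and 7737 counts, or 574, 222 and 342 CPM, and the naive blocked libraries 5620, 7469 and 5923 counts, or 327, 448 and 257 CPM. The injured IP libraries held 4140, 3472 and 10134 counts, or 493, 422 and 435 CPM, and the injured blocked libraries 4301, 4981 and 11962 counts, or 374, 563 and 539 CPM. IP and blocked IP overlapped in both conditions, and the IP was the higher one in 3 of 6 pairs of the same number. The ratios were 1.75, 0.496 and 1.33 in naive nerve and 1.32, 0.749 and 0.807 in injured nerve. The log2 fold change was 0.04 in naive nerve (95% interval −1.06 to 1.15, adjusted p = 0.995), with either sign among the alternatives, and −0.24 in injured nerve (95% interval −1.35 to 0.87, adjusted p = 0.953). In both, edgeR called 0% of 14540 transcripts, 13% and 12.5% had an unadjusted p under 0.05, and DESeq2 called 1128 and 962. Against input, PTBP1 IP had 0.20 in naive nerve (adjusted p = 0.948), where 0.21% of 12393 transcripts were called higher, and −0.68 in injured nerve (adjusted p = 0.802), where 0.96% were. The change of the PTBP1 ratios with crush was −0.28 over the blocked IP (95% interval −1.85 to 1.28) and −0.88 over input (95% interval −2.18 to 0.42). In these comparisons edgeR called 0% of the transcripts, 7.89% and 2.19% had an unadjusted p under 0.05, and DESeq2 called 431 and 9.

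Ncl did not pass the test after crush in the PTBP1 libraries, which overlapped between conditions. The IP had a log2 fold change of 0.12 (95% interval −0.98 to 1.23, adjusted p = 0.966), which turned to −0.15 without naive IP 2, and the blocked IP had 0.41 (95% interval −0.70 to 1.52, adjusted p = 0.701). Of the transcripts, edgeR called 0.00688% and 0.0275% in these comparisons, 1 and 4 in all, whereas DESeq2 called 712 and 2517.

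The antibodies were then set against each other over their own blocked IPs. In naive nerve, the log2 ratio of IP to blocked IP for Ncl was 2.16 larger with the nucleolin antibody than with the PTBP1 antibody (SE 0.81, 95% interval 0.48 to 3.83, unadjusted p = 0.0136, adjusted p = 0.274). Of 10232 transcripts, 0.293% were called higher. In injured nerve the difference was 1.33 (SE 0.81, 95% interval −0.33 to 2.99, adjusted p = 0.753), with 0.108% called higher and 0.186% lower. Neither passed the threshold after adjustment.

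**Figure D4:**
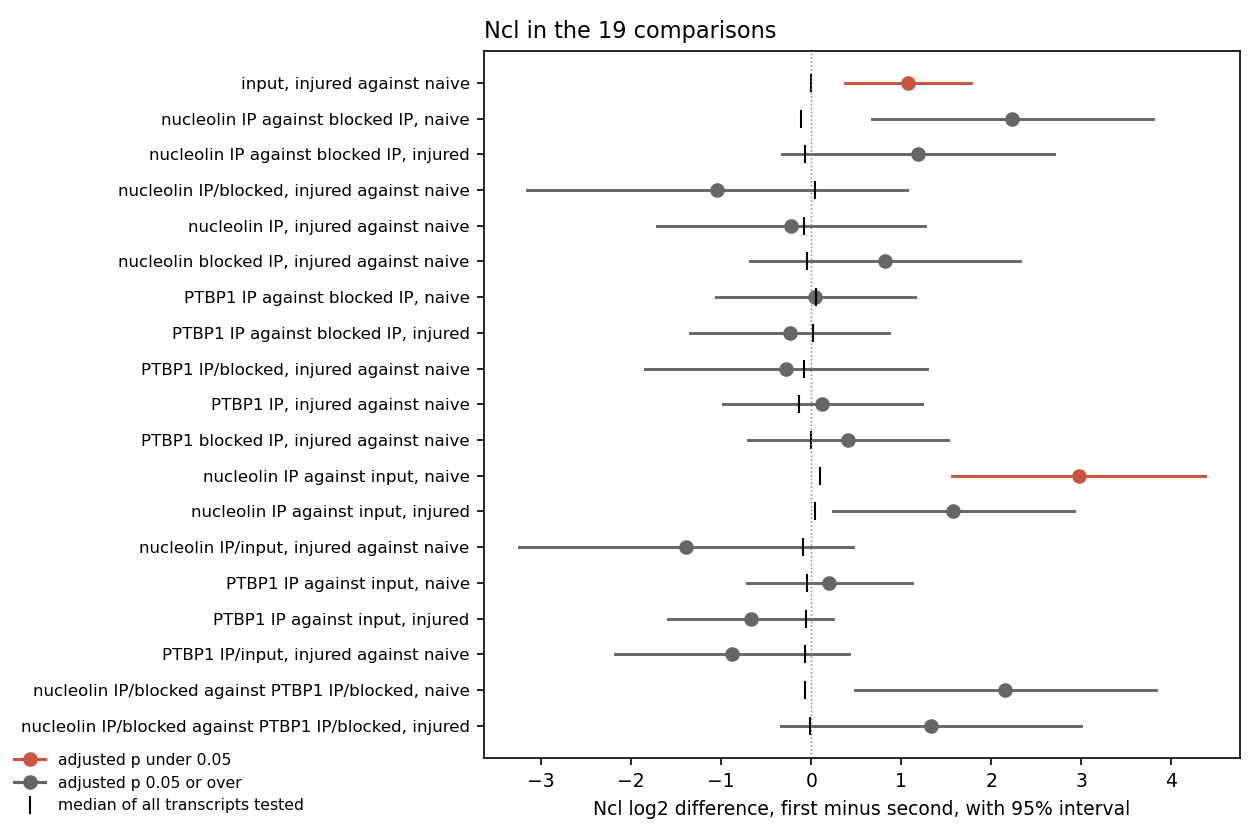
Log2 difference of Ncl in the 19 comparisons, with 95% intervals; red points have an adjusted p under 0.05 and black ticks are the median of all transcripts tested. The 2 red points are input after crush, at 1.07, and naive nucleolin IP against input, at 2.97. All points are from edgeR fits without the replicate block. With the block, injured nucleolin IP against input was also called, at 1.41 (adjusted p = 0.0433).

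The mRNAs of ribosome biogenesis were examined in the same precipitates. In naive nucleolin IP against blocked IP 36 of the 47 listed genes were tested, 0 were called in either direction, the median log2 fold change was −0.54 beside −0.11 for all transcripts, and 0 had a larger value than Ncl. In injured nerve 0 of 36 were called, the median was −0.41 beside −0.06, and 1 had a larger value than Ncl. Of all transcripts tested, 11.0% had a larger value than Ncl in naive nerve and 16.3% in injured nerve. Against input, 0 of 35 were called in either condition. Among the 14 axonal RNA-binding proteins 0 were called against the blocked IP. Pura, whose protein binds purine-rich sequences in neuronal RNA granules, was singled out after its values were seen. It was the 1 member with a larger value than Ncl in naive nerve, at 2.53 (adjusted p = 0.0676). In injured nerve 5 of the 14 had a larger value than Ncl. Against input Pura was called higher in both conditions, with 2.11 (adjusted p = 0.0274) and 2.14 (adjusted p = 0.0466). Of the 5 genes of nucleolin transport and cargo, 0 were called in either comparison with nucleolin IP, and none of the 5 exceeded Ncl against the blocked IP. Mtor had 0.10 in naive nerve and 0.06 in injured nerve against the blocked IP, and Kpnb1 had −0.40 and 0.30.

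Transcripts with levels most like those of Ncl were ranked by Pearson's correlation of log2 CPM over all 30 libraries. The libraries share antibodies, repeats and depth, so the values describe likeness in this set only. Of 10231 other transcripts 0 reached 0.9, 11 exceeded 0.8 and the median was 0.03. The closest were Fam160b2 (0.892), Zfp839 (0.886), Spaca6 (0.880), Ptpre, a tyrosine phosphatase (0.857), and Cplx2, a complexin of vesicle fusion (0.842). Agpat4, an acyltransferase of phospholipid synthesis (0.835), Slc6a6, the taurine transporter (0.830), Man2a2, a mannosidase of the Golgi (0.822), 6820431F20Rik (0.813) and Pcgf3, a Polycomb ring finger protein (0.810), followed. Over the 10 group means Agpat4 was the closest of these, with 0.967. None of the 34 ribosome biogenesis genes compared was among them, and the highest in that list was Nop58 (0.439).

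These 10 transcripts shared the height of the nucleolin IP groups. Slc6a6 had group means of 4342 CPM in naive and 7805 CPM in injured nucleolin IP, 370 and 507 CPM in the blocked IPs, and 319 and 721 CPM in the inputs. Fam160b2 had 1576 and 2408 CPM in the IPs, 123 and 132 CPM in the blocked IPs and 51.3 and 296 CPM in the inputs. Their log2 fold changes over the blocked IP ran from 2.23 to 4.84 in naive nerve and from 1.72 to 4.97 in injured nerve, and none was called. The lowest adjusted p among them was 0.0528 in naive nerve, for 6820431F20Rik, and 0.102 in injured nerve. In naive nerve 9 of the 10 had a larger value than Ncl, beside 11.0% of all transcripts. In injured nerve it was 10 of the 10, beside 16.3%. In input, 7 of the 10 rose after crush and 0 fell, beside 14.5% of all transcripts called higher and 13.4% lower. These 10 were picked on the same libraries, so their counts describe them and support no test.

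**Figure D5:**
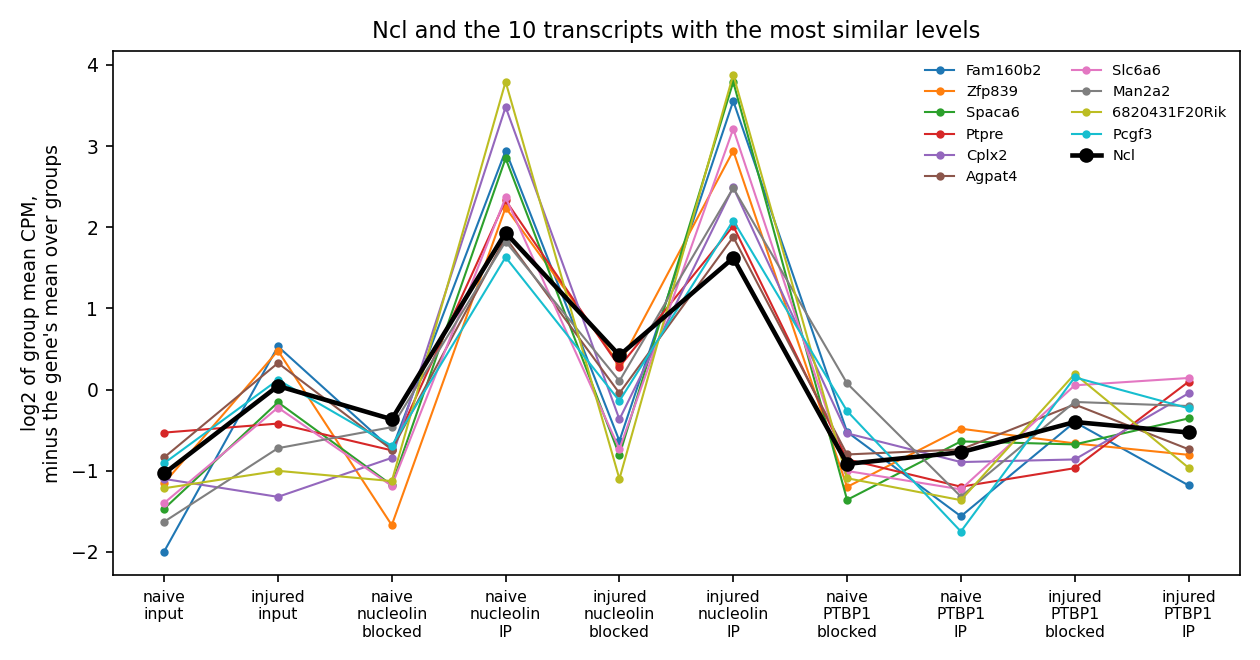
Log2 of the group mean CPM of Ncl (black) and of the 10 transcripts most like it (colours), each minus its own mean over the 10 groups. All 11 lines peak in naive and injured nucleolin IP.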

How the data were processed

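Counts per Ensembl transcript were deposited by the authors as whole numbers. The deposited tables also hold log2 fold changes with p-values and FDR, which were copied for comparison only. CASAVA 1.8.2 and edgeR were used by the authors, on mm10 and GRCm38, per the submitters' processing notes. Not given in the sources used here were the aligner, the counter, any strand setting and the release of the annotation. The tables were filtered before deposit, so totals are not full depths, and 114 further columns of single samples (FPKM and other derived values) were not used here. Columns with the letters PCP3 were taken as blocked library 3, whose condition, protein and number they match.

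Groups came from the sample titles. Ncl and all other transcripts were tested with edgeR 4.0.16 (R 4.3.3; quasi-likelihood test, TMM, filterByExpr, Benjamini-Hochberg adjustment over all transcripts, two-sided, threshold 0.05) in fits of the 6 inputs, of 12 libraries per antibody, of these with the inputs (18), and of all 30. DESeq2 1.42.0 was an alternative. Levels are CPM on the TMM scale of the 30-library fit, except the means of list members in input, which are on that of the input fit. Annotation was GENCODE M21 on GRCm38, which held 97.8% of the transcript identifiers. The 3 repeats are described as biological, so p-values measure the spread between them. Numbers were taken to pair libraries in a comparison only where every correlation of same-numbered deviations among its groups was over 0.1. This held for injured nucleolin IP against input (0.116, 0.158 and 0.159). The main fits carried no replicate block, there too, and the value with the block is given beside the main one. Injured nucleolin IP and injured PTBP1 IP also correlated by number (0.180, 0.236 and 0.363), but the other groups of that comparison did not all reach 0.1.

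On simulated counts for transcripts of at least 100 CPM, 42% of 2-fold and 100% of 4-fold changes were recovered in the input comparison. For naive nucleolin IP against blocked IP, 32% of 4-fold and 86% of 8-fold changes were recovered, and against naive input 72% and 90%. False calls numbered 12, 5 and 9. In each comparison 50 transcripts were changed by each of 2-, 4-, 8- and 16-fold, and no effect of repeat was simulated. Planted changes loosen the adjusted threshold, and the real naive comparison with the blocked IP had 0 calls. The rates are therefore not the power for Ncl.

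Ncl and the lists were chosen with earlier results of these data known. Named from each list were the 4 members with the largest change among those called in input, any called in an IP against blocked IP comparison, and the 10 transcripts most correlated with Ncl. Markers are named as examples chosen after their values were seen. Alternatives were other scalings, DESeq2, no filter, sums per gene, a replicate block, removal of Yam1, Lars2 and Gm15564, fits of only the groups compared, and each library left out in turn.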

Additional observations from a re-analysis of the deposited data

How the results depend on the processing

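Of 318 alternative values for Ncl over the 19 comparisons, 295 kept their direction and their side of the threshold, 10 lost the call, 2 gained it and 11 changed sign, all 11 in comparisons where Ncl was not called. The cause was not tested. Leaving out 1 library at a time gave log2 values of 0.51 to 1.31 for input after crush, 2.40 to 3.42 for naive nucleolin IP against input, −1.08 to 0.32 for nucleolin IP after crush, −0.28 to 0.31 for naive PTBP1 IP against blocked IP, −0.56 to 0.12 for its change with crush, −0.15 to 0.54 for PTBP1 IP after crush, and −0.18 to 0.48 for naive PTBP1 IP against input. Library totals alone gave 0.60 for input after crush (call lost), −0.29 for naive PTBP1 IP against blocked IP and −0.25 for it against input; totals without Yam1, Lars2 and Gm15564, chosen after seeing the data, gave −0.29 and −0.30 for the last 2. DESeq2 gave 2.41 for naive nucleolin IP against blocked IP (call gained).

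The replicate block gave a call for injured nucleolin IP against input (1.41) and changed no other call for Ncl: 0.98 in input (adjusted p = 0.0028), 2.03 for naive nucleolin IP against blocked IP (adjusted p = 0.125) and 2.75 against naive input (adjusted p = 0.00321). In each other comparison at least 1 correlation of same-numbered deviations was 0.1 or below. Counts of called transcripts also moved. For input after crush 3924 became 2327 with totals alone, of which 36.4% were higher against 51.9%, and 62.7% of 4075 with totals without the 3 transcripts. For naive nucleolin IP against input 115 became 295 with the block, 601 with DESeq2, 305 with only the groups compared, and 0 to 581 with a library left out. For naive nucleolin IP against blocked IP 0 became 39 with totals alone, 38 with totals without the 3 transcripts, 24 with sums per gene and 0 to 320 with a library left out. For injured nucleolin IP against input 44 became 393 with the block, 253 with totals alone, 717 with DESeq2, 106 with sums per gene, 96 with totals without the 3 transcripts, 1069 with only the groups compared and 0 to 431 with a library left out. For nucleolin IP after crush 98 became 729 with DESeq2, 334 with the block, 495 with only the groups compared and 2 to 27 with a library left out, and for its blocked IP 184 became 1621, 475, 0 and 13 to 419. For PTBP1 IP after crush 1 became 712 with DESeq2 and 6 with the block, and for its blocked IP 4 became 2517 and 43. For PTBP1 IP against input 27 became 399 with DESeq2, 1 with RLE factors and 0 with only the groups compared in naive nerve, and 127 became 669, 197 and 877 in injured nerve. For nucleolin against PTBP1 recovery 66 became 406 with DESeq2, 17 with the block and 0 with only the groups compared in naive nerve, and 30 became 250, 56 and 0 in injured nerve. Fits of only the groups compared repeat the fit for input and for the change of IP over blocked IP, and were not run there.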

Other observations

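Library 1 held the highest Ncl CPM in 8 of the 10 groups, library 2 in 2 and library 3 in 0. The 8 groups were the 4 nucleolin groups, both inputs and both PTBP1 IPs, and the 2 were the PTBP1 blocked IPs.

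Of the small RNA genes inside Ncl introns, Snora75 (intron 12) and Snord82 (intron 5) were not listed in the tables used. Gm24148, annotated as a small nucleolar RNA in intron 11 at chr1:86352008-86352087 of GRCm38, was listed only in the table of injured nucleolin libraries and was singled out after its values were seen. It had 6, 16 and 5 counts in the IP libraries 1, 2 and 3 and 0, 0 and 13 in the blocked libraries, and these ranges overlap.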
